A study of Mus musculus with 19 samples.

Results

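Gene expression in the left ventricle was related to ventricular and lung weight among 14 mice with a banded aorta, out of 19 mice in the series. The members were all mice labelled as banded, 7 without and 7 with heart failure. For each gene the group mean was subtracted from the log2 signal and from the labelled left ventricular weight over tibia length, and the deviations were related across the 14 animals. The same was done for lung weight over tibia length. A relation found in this way cannot come from the mean difference between the 2 groups, since that difference was removed.

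The mice were male C57BL/6, operated at 7 weeks of age and sampled 4 weeks later, with 1 Affymetrix array per mouse. Banding is an operation that narrows the aorta, so that the left ventricle must work against a higher pressure. The 5 sham-operated mice entered no slope and are given as background. The labels do not state the criterion for heart failure, so it is not known whether lung weight was part of it. They name no batch and no pooling, and the p-values measure the spread between these mice only.

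A ventricle under pressure overload thickens as its muscle cells enlarge, and it returns to the expression of fetal genes such as those for the natriuretic peptides and beta myosin. Fibroblasts lay down collagens, matricellular proteins (found in the matrix and acting on cells) and the enzymes that hydroxylate and crosslink collagen. When the left heart fails, blood backs up into the lungs, and the fluid makes them heavier.

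The left ventricular index in the labels was 6.98 ± 0.437 (SD, n = 7) in banded mice without heart failure, from 6.42 to 7.59 with a median of 7.13. It was 8.97 ± 0.608 (n = 7) with heart failure, from 8.09 to 9.75, so the groups did not overlap. The sham mice had 5.14 ± 0.26 (n = 5). The lung index was 9.1 ± 0.8 without heart failure, where mouse 2 had 10.83 and the other 6 lay between 8.52 and 9.19. It was 20.4 ± 2.18 with heart failure, from 17.92 in mouse 2 to 24.62 in mouse 3, and 8.59 ± 0.49 in sham mice. The deviations of the 2 indices from their group means were related weakly (Pearson r = 0.37, permutation p = 0.287, Spearman rho = 0.44, permutation p = 0.162, two-sided, n = 14). Without mice 4 and 1 with heart failure, the farthest from the median, r was 0.32. Within groups r was -0.43 without heart failure (exact permutation p = 0.37, n = 7) and 0.6 with it (exact permutation p = 0.154, n = 7).

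**Figure D1:**
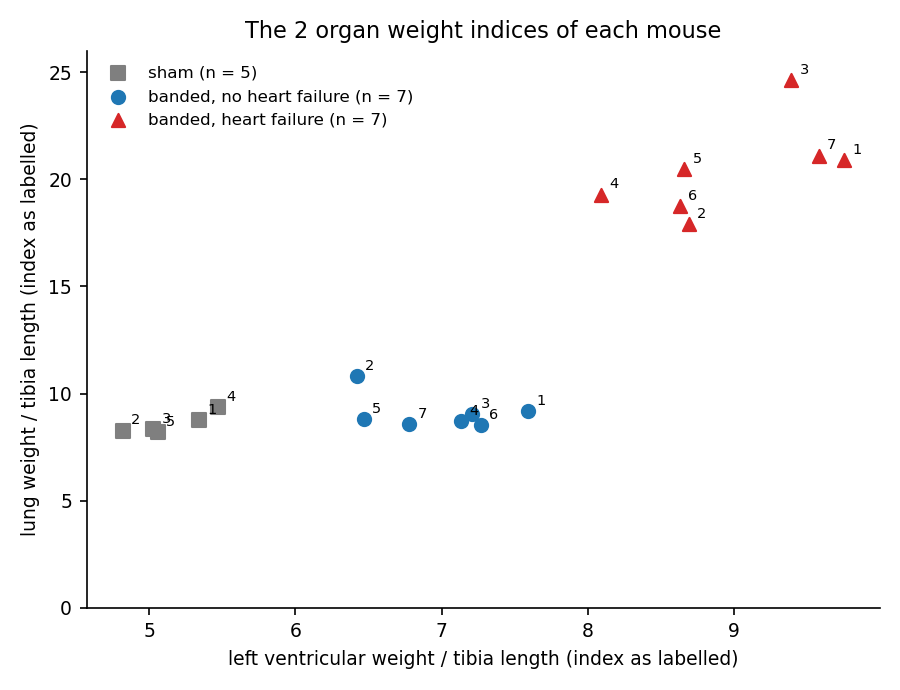
Left ventricular index (x axis) and lung index (y axis), both organ weight over tibia length as labelled, for the 19 mice, with each mouse's number beside its point. The lung index parts the banded groups by a wide gap, while within the mice without heart failure only mouse 2 (10.83) lies above 9.19.

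The 14 arrays correlated between 0.96 and 0.994 with each other. Mouse 5 with heart failure stood apart: 569 genes lay more than 1 log2 unit from the mean of its group mates, against 57 to 105 in the other 13 mice. Among them, chosen after their values were seen, were Lcn2 (12.61, others 4.59 to 6.63), S100a8 (11.77, others 4.87 to 6.13) and Serpina3n (13.31, others 8.31 to 10.48), which are genes of acute inflammation. Its left ventricular index of 8.66 and lung index of 20.48 lay near the group means. The 18S ribosomal control signal was high for mice 5 to 7 without heart failure (10.99 to 11.76), and on the other banded arrays it lay between 5.14 and 7.62. Where leaving out mouse 5 or blocking on the 18S set moved a value clearly, that value is given too.

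No gene's slope on the left ventricular index passed the threshold. Of 10733 genes limma called 0 (0%) at an adjusted p under 0.05, and the smallest adjusted p was 0.759. At an unadjusted p under 0.05 there were 643 genes (5.99%), of which 292 (2.72%) had a positive and 351 (3.27%) a negative slope. Without mouse 1 of the group without heart failure, the heaviest ventricle there, it was 340. The lung index gave 0 genes (0%) as well, with a smallest adjusted p of 0.253 and 461 genes (4.3%) at the unadjusted threshold, 240 (2.24%) positive and 221 (2.06%) negative. These unadjusted shares are near what the threshold itself lets through. A slope is given as the log2 change per unit of the index, and its error is the standard error of the fit. The median error was 0.09 for the left ventricular index and 0.03 for the lung index. The genes below are therefore described by their values, and none is said to rise or fall.

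The steepest slopes relative to their error on the left ventricular index belonged to genes of several kinds. 3110040M04Rik ranged from 6.2 to 7.88 (median 7.52) without heart failure and from 6.69 to 8.22 (median 7.56) with it, on the log2 scale. The 3 mice with the lightest ventricles in the group without heart failure had the 3 lowest levels, and mice 1 and 7 with heart failure, the heaviest, had the highest of their group. The slope was 0.96 ± 0.18 (limma adjusted p = 0.759). Sham mice lay between 4.93 and 6.33.

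P4ha1 encodes the catalytic subunit of the enzyme that hydroxylates proline in collagen. It ranged from 9.35 to 9.93 (median 9.58) without and from 9.67 to 10.22 (median 9.89) with heart failure, above all sham mice (8.65 to 9.19). The slope was 0.3 ± 0.06 (limma adjusted p = 0.794), and it was 0.37 among mice without and 0.27 among mice with heart failure. Its other probe set gave 0.27. Leaving out any single mouse kept it between 0.26 and 0.37. Vsig4, a complement receptor of resident macrophages, had a slope of 1.2 ± 0.26 (limma adjusted p = 0.794). It is a dim gene, with log2 above 4 on 5 of 7 arrays without and 3 of 7 with heart failure, and in the group with heart failure the heaviest ventricles had the highest levels (5.71 and 5.21 in mice 1 and 7). Without heart failure mice 3 and 6 were highest (5.28 and 5). Sham mice ranged from 3.83 to 6.77, and mice 2, 4 and 6 with heart failure (2.82, 3.64 and 3.72) lay below all of them.

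Flna, which encodes the actin crosslinker filamin A, had a slope of 0.34 ± 0.08, and Nuak1, a kinase related to AMPK, one of 0.44 ± 0.11. S100a4, a calcium-binding protein found in fibroblasts and leukocytes, had 0.62 ± 0.16. It was 9.88 in mouse 1 with heart failure and 8.3 to 8.82 in the other 6, and the slope was 0.39 at its lowest when 1 mouse was left out. Smad7, the inhibitory Smad of TGF-beta signalling, had 0.39 ± 0.1, with 0.68 among mice without and 0.24 among mice with heart failure. The other positive slopes in the first 12 were Cda (cytidine deaminase, 0.53), Tnip2 (0.31), Lfng, which modifies Notch receptors (0.36), Asap2 (0.37) and the potassium channel gene Kcnj14 (0.58). Several arrays shared 1 level of Cda (5.01), which limits what its slope shows. Kcnj14 is dim, with log2 above 4 on 7 of 7 arrays with heart failure but on 2 of 7 without it and 0 of 5 sham arrays. Without heart failure it lay between 2.84 and 4.06. All 12 were positive within each banded group, which their choice by the p of the common slope favours.

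Bcl2l11 encodes Bim, a BH3-only protein that promotes cell death. It ranged from 7.35 to 8.92 (median 8.28) without and from 6.89 to 8.38 (median 7.82) with heart failure. In each group the heaviest ventricles had the lowest levels: 7.35 in mouse 1 without heart failure, and 6.89 and 7.53 in mice 7 and 1 with it. The slope was -0.81 ± 0.15 (limma adjusted p = 0.759), the smallest unadjusted p of the left ventricular fit (7.91e-05). All 4 probe sets of the gene had negative slopes, from -0.86 to -0.3, and leaving out any single mouse kept the slope between -0.95 and -0.72. With the series of animal numbers in the sample titles as a block the slope was -0.76 and passed (limma adjusted p = 0.00793), the 1 call among the alternatives run for the slopes on either index. Sham mice ranged from 7.86 to 9.25.

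Gpr22, an orphan receptor of heart and brain, ranged from 7.14 to 8.94 (median 8.19) without and from 6.56 to 8.01 (median 7.56) with heart failure. The sham range (9.51 to 10.11) did not overlap that of the banded mice, and the slope within groups was -0.8 ± 0.19 (limma adjusted p = 0.794). Btbd11 had a slope of -0.54, with -0.99 without and -0.31 with heart failure. The other negative slopes in the first 12 were Sertad2 (-0.25), Elmod3 (-0.39), Tspyl4 (-0.35), the mitochondrial NAD kinase gene Nadk2 (-0.28), Zfp551 (-0.52), the centriole gene Ccp110 (-0.39), the small GTPase gene Rab17 (-0.26), Zmat1 (-0.43) and Rasl2-9 (-0.26). All 12 were negative in each banded group, which the way they were chosen favours here too.

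**Figure D2:**
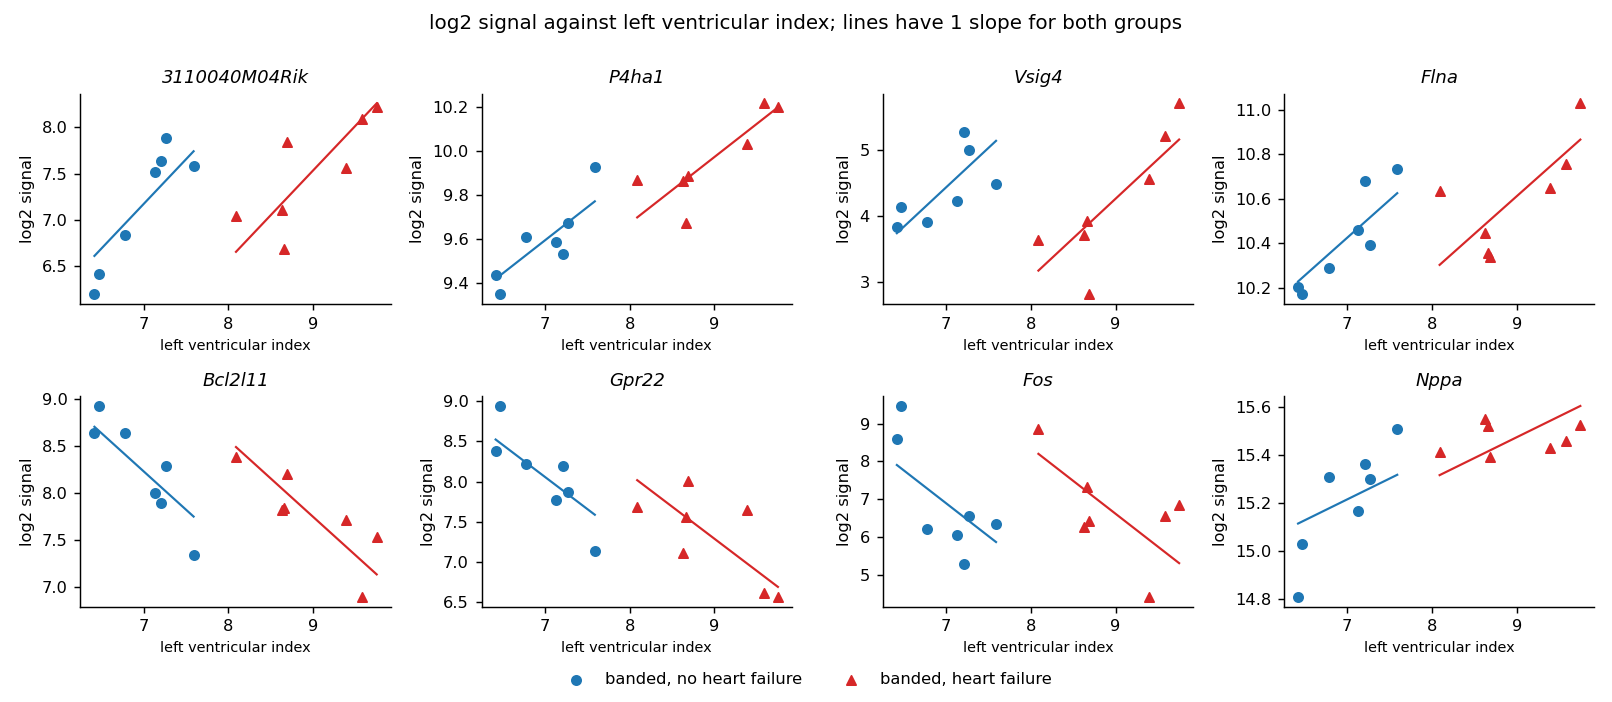
Log2 signal (y axis) against left ventricular index (x axis) for 8 genes in the 14 banded mice, blue circles without and red triangles with heart failure, with lines of 1 common slope drawn through each group mean. In Bcl2l11 and P4ha1 both groups follow the common line, whereas in Nppa the mice with heart failure lie between 15.39 and 15.55, with a slope of 0.02 among them. Signals as bright as that of Nppa can saturate.

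Fetal and hypertrophy genes had positive slopes on the left ventricular index in 13 of 14 cases, with a median of 0.17, against 4979 of 10733 genes and a median of -0.01 over all genes tested. At an unadjusted p under 0.05, 2 of them had positive and 0 negative slopes (2.72% and 3.27% over all genes): Actn1, an actinin of the cytoskeleton (0.25 ± 0.1), and Crip1 (0.32 ± 0.13). Nppa, which encodes atrial natriuretic peptide, was 14.81 to 15.51 (median 15.3) without and 15.39 to 15.55 (median 15.46) with heart failure, and 12.93 to 13.93 in sham mice. The mice with heart failure thus spanned a narrow range near the top of the group without it. Signals this bright can saturate, so a slope among them may be understated. The part of saturation was not tested. Its slope was 0.17 ± 0.08 (limma adjusted p = 0.835), with 0.47 ± 0.1 without and 0.02 ± 0.07 with heart failure. Over the 14 mice the deviations gave r = 0.54 (permutation p = 0.0139) and rho = 0.55 (permutation p = 0.0261), and r = 0.59 without mice 4 and 1 with heart failure. Within groups r was 0.87 without heart failure (exact permutation p = 0.00754, n = 7) and 0.22 with it (exact permutation p = 0.635, n = 7). Across the 30 relations of fixed genes with the 2 indices, the smallest adjusted permutation p was 0.14 for r and 0.261 for rho, so none passed.

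Nppb, the B-type peptide gene, had a slope of 0.11 ± 0.1, and Acta1, the skeletal alpha actin gene, 0.13 ± 0.06 (both with a limma adjusted p over 0.05). Myh7, the beta myosin heavy chain gene, had -0.06 ± 0.22, and its sign changed with the mice and settings used. Myh6, the adult alpha chain, had -0.03 ± 0.04, and Atp2a2, which returns calcium to the sarcoplasmic reticulum, 0.03 ± 0.05. The mean of all probe sets turned the sign of both, to 0.04 and -0.03. Igf1, a growth factor for muscle, had 0.08 ± 0.23. Nppa is also an atrial marker. Of 8 tested atrial markers 7 had positive slopes (median 0.4), 3 of 8 among mice without and 8 of 8 among mice with heart failure. Their summed log2 level was 15.23 to 16.08 without and 15.46 to 16.52 with heart failure, and 13.48 to 14.99 in sham mice. It was highest in mouse 1 with heart failure, which had the heaviest ventricle, and without that mouse 2 of 8 atrial markers were positive over both groups (median -0.17). The part of atrial tissue in these slopes was not tested.

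Matrix genes had mostly positive slopes on the left ventricular index. All 15 tested collagen processing and crosslinking genes were positive (median 0.16), as were 16 of 18 matricellular genes (0.33), 19 of 23 basement membrane and network collagen genes (0.07), 13 of 16 elastic fibre and glycoprotein genes (0.16) and 7 of 9 fibrillar and fibril-associated collagens (0.15). Proteoglycans were positive in 12 of 17 cases (0.06), matrix proteases and inhibitors in 10 of 16 (0.05) and TGF-beta signalling genes in 9 of 18 (0.02). These medians rested partly on single mice. Without mouse 2 of the group without heart failure they were 0.02 for the fibrillar collagens, 0.03 for the elastic fibre genes and 0.18 for the matricellular genes, and without mouse 1 of that group 0.04 for the basement membrane genes and 0.11 for the crosslinking genes. Without mouse 1 with heart failure they were 0.01 for proteoglycans, -0.03 for TGF-beta signalling genes and -0.01 for proteases and inhibitors. Without mouse 5 with heart failure 14 of 23 basement membrane genes were positive (median 0.05). At the unadjusted threshold no matrix list held a negative slope (3.27% over all genes), and each held 1 to 3 positive ones (2.72% over all genes) except the fibrillar collagens, which held 0. In lists of this size a count of 1 is near that share. Beside P4ha1, Timp1 and Smad7 these included P4hb, the partner subunit of the prolyl hydroxylase (0.16 ± 0.07), Col18a1 (0.58 ± 0.19), the perlecan gene Hspg2 (0.25 ± 0.1), the matricellular genes Ccn5 (0.76 ± 0.29) and Smoc2 (0.16 ± 0.07), fibulin-2 (Fbln2, 0.36 ± 0.14), the syndecan gene Sdc3 (0.23 ± 0.1) and the protease gene Mmp23 (0.46 ± 0.14). Without mouse 1 of the group without heart failure Hspg2 had 0.15 and Sdc3 0.14. Genes of a list can be expressed by the same cells, and lists can share genes, so the counts are not over independent items.

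Most matrix lists had a larger median among the mice without than among those with heart failure, but matrix proteases and inhibitors did not (0.03 and 0.08), and no difference between list medians was tested. Among the mice without heart failure, 8 of 9 fibrillar collagens had positive slopes with a median of 0.69, and 17 of 18 matricellular genes with a median of 0.7. Among the mice with heart failure the counts were 2 of 9 (median -0.07) and 10 of 18 (median 0.08). Over all genes 4767 of 10733 had a positive slope without and 5374 with heart failure. Elastic fibre genes had medians of 0.48 and -0.05, proteoglycans of 0.36 and -0.07, and fibroblast markers 0.36 (12 of 13 positive) and -0.07 (2 of 13). These lists share genes, so their medians are not separate observations. Col1a1 is both a fibrillar collagen and a fibroblast marker, and its slope with heart failure (-0.07) was the median of both lists. Proteoglycans and fibroblast markers likewise shared 1 median value without heart failure (0.36). Leaving out any single mouse kept the median without heart failure between 0.3 and 0.85 for the collagens and between 0.45 and 0.83 for the matricellular genes. With the 18S array set as a block within that group it was 0.65 and 0.6. With heart failure the same ranges were -0.24 to 0.11 and -0.08 to 0.19, and they were -0.22 to 0.11 for elastic fibre genes, -0.18 to 0.02 for proteoglycans and -0.21 to 0.06 for fibroblast markers. None of these lists therefore has a settled sign there. Without mouse 5 the medians with heart failure were -0.17 for the collagens and 0 for the matricellular genes. The difference between the 2 slopes was tested gene by gene: limma called 0 of 10733 genes (0%), with 618 (5.76%) at an unadjusted p under 0.05 and a smallest adjusted p of 0.605.

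Postn, which encodes the matricellular protein periostin, had that smallest p. It ranged from 12.01 to 13.59 (median 13.07) without and from 13.78 to 14.28 (median 13.9) with heart failure, so the groups did not overlap, and from 10.57 to 11.41 in sham mice. Without heart failure the lowest levels were in mice 2 and 5 (12.01 and 12.27), which had the lightest ventricles, and the highest in mouse 1, which had the heaviest. The slope was 1.17 ± 0.23 without and -0.26 ± 0.17 with heart failure. The difference of -1.43 had a limma p of 0.00026 and an adjusted p of 0.605. Within the group without heart failure r was 0.86 (exact permutation p = 0.0141, n = 7).

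Ltbp2, which binds fibrillin, ranged from 6.03 to 8.7 (median 8.12) without and from 9.2 to 9.87 (median 9.64) with heart failure. Its slopes were 1.49 ± 0.44 and -0.28 ± 0.32, and without mouse 2, which had the 6.03, the first was 0.63. Thbs4, a thrombospondin, had 1.24 ± 0.44 and -0.56 ± 0.32, and 0.71 without mouse 2. Cilp had 1.17 ± 0.46 and -0.38 ± 0.33, and 0.62 without mouse 2. Ccn2, connective tissue growth factor, had 1 ± 0.28 and -0.01 ± 0.2, with r = 0.87 in the group without heart failure (exact permutation p = 0.00575, n = 7). Col1a1 had 0.84 ± 0.37 and -0.07 ± 0.26, and Col3a1 0.71 ± 0.25 and 0 ± 0.18. Timp1, an inhibitor of matrix proteases, had slopes of 1.24 ± 0.42 and 0.27 ± 0.3. Without mouse 2 the first was 0.72, and without mouse 1 with heart failure the second was 0.03. Its common slope of 0.6 ± 0.27 had a limma adjusted p of 0.821, and it was 0.39 without mouse 2 of the group without heart failure. Over the 14 mice Timp1 gave r = 0.53 (permutation p = 0.0326) and rho = 0.59 (permutation p = 0.0212), and r = 0.53 without mice 4 and 1 with heart failure. Mouse 2 without heart failure moved the first slope of Ltbp2, Thbs4 and Cilp by more than any other mouse.

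**Figure D3:**
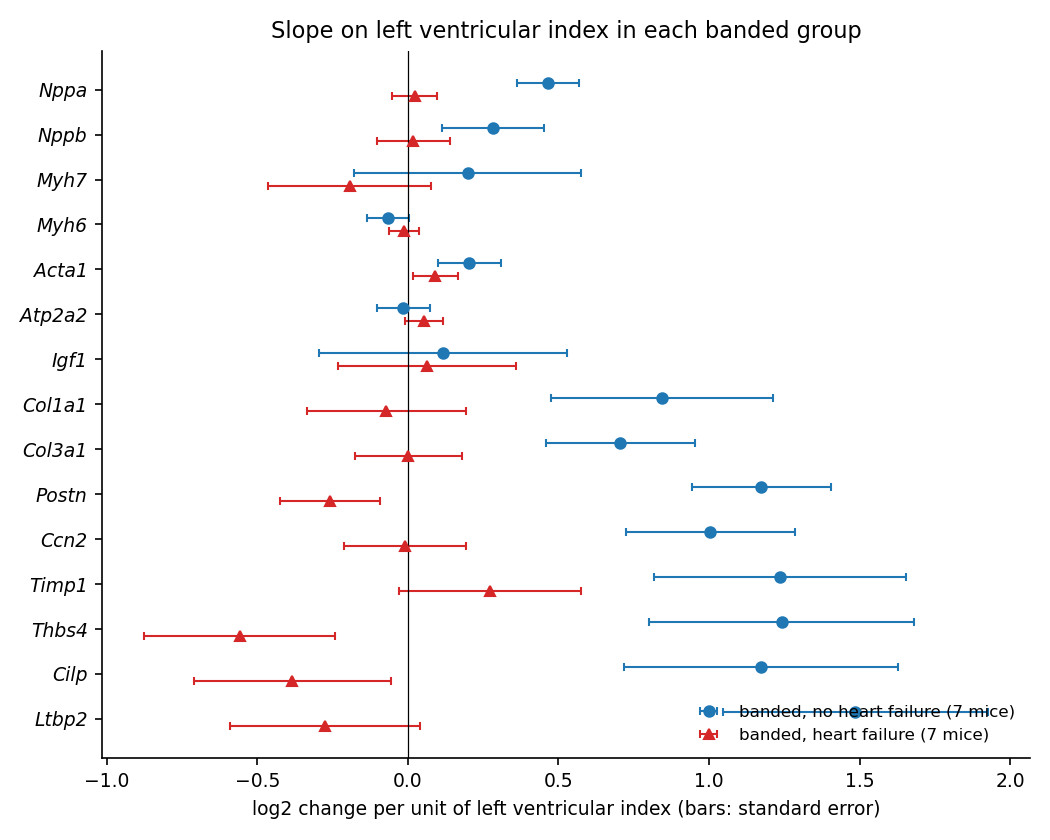
Slope of log2 signal on left ventricular index (x axis, log2 change per unit) for 15 fixed genes, blue circles for the 7 mice without and red triangles for the 7 with heart failure, bars showing the standard error. Postn, Ltbp2, Thbs4 and Cilp have slopes above 1 without and below 0 with heart failure, and the cardiomyocyte genes Myh6 and Atp2a2 lie near 0 in both. Signals as bright as those of Myh6, Atp2a2, Nppa and Acta1 can saturate.

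Fibroblast markers, which mark the cells that make most matrix, had a summed log2 level of 15.76 to 16.29 without and 16.21 to 16.6 with heart failure, and 15.58 to 15.98 in sham mice. Without heart failure mouse 1, with the heaviest ventricle, was highest and mouse 6 (left ventricular index 7.27) lowest. With heart failure mouse 4, with the lightest ventricle, was highest and mouse 3 (9.39) lowest. In bulk tissue more cells of a type and more RNA per cell cannot be told apart. The part of fibroblast number in the matrix slopes was not tested. The marker list itself holds matrix genes (Col1a1, Col1a2, Dcn and Lum), so its sum is not separate from the matrix slopes. Within the list Thy1 had an unadjusted p under 0.05 (0.38 ± 0.11, limma adjusted p = 0.809). Cardiomyocyte markers, by contrast, had a median slope of 0 (9 of 15 positive) and a summed level that stayed between 19.24 and 19.38 in all banded mice.

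Macrophage and leukocyte markers had positive slopes in 15 of 20 cases with a median of 0.17. At an unadjusted p under 0.05, 4 had positive slopes (2.72% over all genes) and 0 negative ones (3.27%). These were Lyve1 (0.77 ± 0.24), Cd163 (0.64 ± 0.27) and the complement genes C1qa (0.26 ± 0.09) and C1qc (0.26 ± 0.11), which with Vsig4 are known from resident macrophages. Cd163 had 0.32 without mouse 4 with heart failure. Among mice with heart failure 16 of 20 markers were positive (median 0.25), and 20 of 20 without mouse 5. Among mice without heart failure 9 of 20 were positive (median -0.04). Whether these slopes differ between the groups was not tested for the list. Their summed level was 13.67 to 13.93 without and 13.53 to 14.17 with heart failure, and 13.44 to 14.72 in sham mice. The smooth muscle marker Tagln (0.51 ± 0.22) and the epicardial marker Wt1 (0.58 ± 0.21, and 0.32 without mouse 1 with heart failure) also had an unadjusted p under 0.05. Cell division genes had positive slopes in 15 of 17 cases (median 0.21), and in 13 of 17 (median 0.09) without mouse 5 with heart failure. Within the mice with heart failure their median was 0.21, and -0.02 without mouse 5, so that value rested on that mouse.

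Immediate early genes, which are induced within minutes by stimuli of many kinds, had negative slopes in 11 of 15 cases (median -0.32). At an unadjusted p under 0.05, 4 had negative slopes (3.27% over all genes) and 0 positive ones (2.72%). Fos ranged from 5.3 to 9.47 (median 6.34) without and from 4.42 to 8.86 (median 6.56) with heart failure, against 5.09 to 8.37 in sham mice. It was highest in the light ventricles of mice 5 and 2 without heart failure (9.47 and 8.6) and mouse 4 with it (8.86). The slope was -1.74 ± 0.56 (limma adjusted p = 0.809). Egr1 had -1.19 ± 0.42, and -0.75 without mouse 4 with heart failure. Without that mouse the Fos slope among mice with heart failure was -0.41, against -1.26 with it.

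Energy metabolism genes had slopes near 0. Fatty acid oxidation genes were negative in 19 of 27 cases with a median of -0.04. Acot1, an acyl-CoA thioesterase, had -0.6 ± 0.19, and Ucp3, a mitochondrial uncoupling protein, -0.56 ± 0.22. Oxidative phosphorylation genes had a median of -0.01, and 22 of 61 were positive. Leaving out single mice moved that count between 7 and 35, so over both groups it gives no direction. Among mice without heart failure 12 of 61 were positive (median -0.06), and 7 to 22 when single mice were left out. With the 18S array set as a block there it was 18 (median -0.02). Among mice with heart failure 34 of 61 were positive (16 to 52). The difference was not tested for the list. Sarcomere and Z-disc genes had a median of 0.01, calcium handling genes of 0, and cardiac ion channel genes of -0.04. Ion channel genes had a median of -0.22 (3 of 17 positive) without and 0 (10 of 17) with heart failure, with ranges of -0.23 to -0.14 and -0.03 to 0.09 when single mice were left out. Calr and Dnajb9, of protein folding in the endoplasmic reticulum, had 0.16 ± 0.07 and -0.13 ± 0.06, and the small heat shock protein gene Hspb8 0.2 ± 0.06. Circadian clock genes had a median of 0.01 over both groups, 0.55 without and -0.09 with heart failure. The labels do not give the time of day of sampling.

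**Figure D4:**
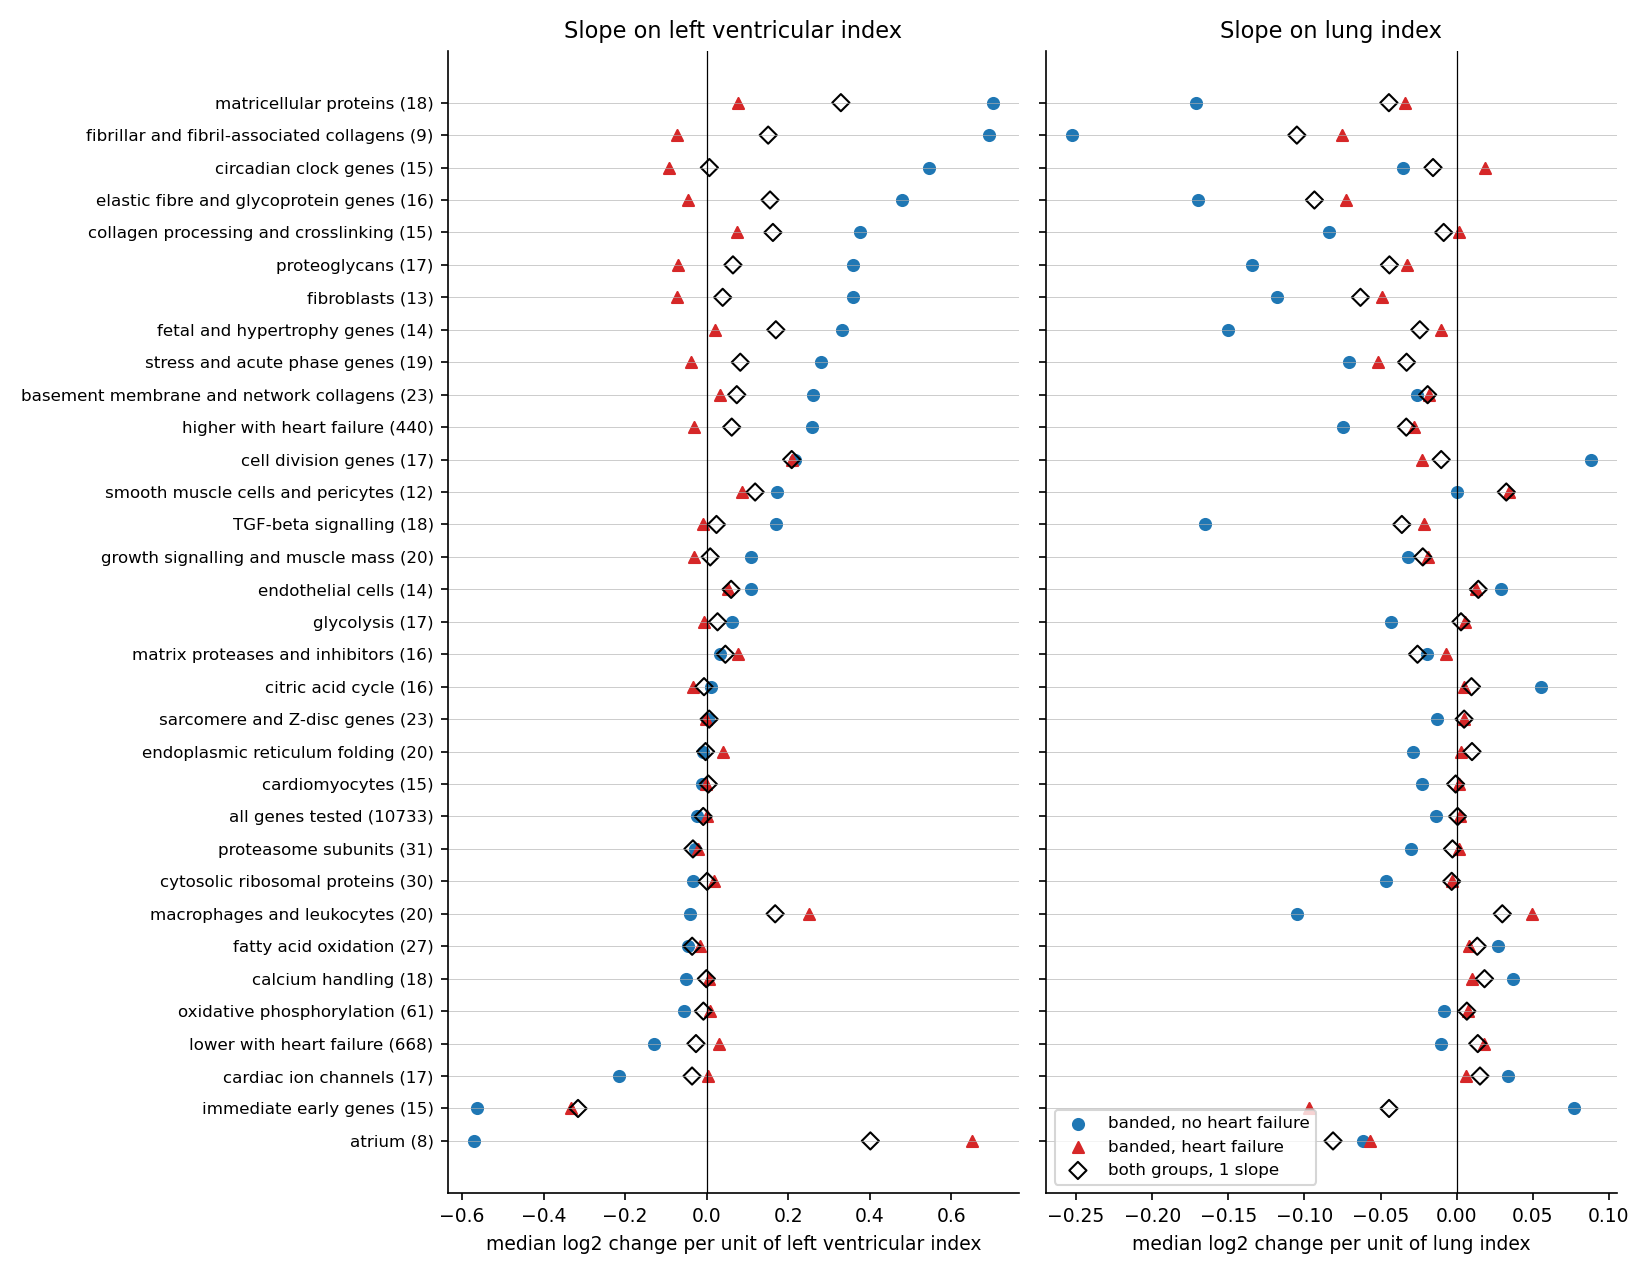
Median slope of each gene list (x axis, log2 change per unit of left ventricular index on the left and of lung index on the right), with the number of tested genes in brackets, for lists with at least 5. Matrix lists lie to the right for the left ventricular index in mice without heart failure (matricellular proteins at 0.7) and left of 0 for the lung index.

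On the lung index 6 lists of matrix, TGF-beta and fibroblast genes had mostly negative slopes, but so had lists of other kinds. Fetal and hypertrophy genes were negative in 11 of 14 cases, and cytosolic ribosomal protein genes in 22 of 30. Growth signalling genes were negative in 15 of 20, stress genes in 14 of 19 and immediate early genes in 13 of 15. Without mouse 3 with heart failure 11 of 15 immediate early genes were positive. Without that mouse 17 of 19 stress genes, 12 of 20 growth signalling genes and 7 of 14 fetal genes were positive, so these directions rested on it. Cytosolic ribosomal protein genes stayed mostly negative, with 10 of 30 positive. Fibrillar collagens were negative in 9 of 9 cases (median -0.1), fibroblast markers in 12 of 13 (-0.06), elastic fibre genes in 13 of 16 (-0.09), matricellular genes in 15 of 18 (-0.04), TGF-beta signalling genes in 14 of 18 (-0.04) and proteoglycans in 13 of 17 (-0.04), against 5481 of 10733 genes positive overall. Collagen processing and crosslinking genes, all positive on the left ventricular index, were divided here (7 positive, 8 negative, median -0.01, and -0.05 to 0 when single mice were left out). Basement membrane genes were negative in 15 of 23 cases (-0.02) and proteases and inhibitors in 11 of 16 (-0.03). Without mouse 3 with heart failure 11 of 23 and 10 of 16 were positive. At the unadjusted threshold the 6 lists held 1 to 3 negative slopes each (2.06% over all genes) and 0 positive ones (2.24%). Leaving out any single mouse kept 0 or 1 fibrillar collagen and 1 fibroblast marker positive. These lists share genes, Col1a1 among them. Most of the spread in the lung index lay in few animals, mice 3 (24.62) and 2 (17.92) with heart failure and mouse 2 without (10.83). The latter also had low matrix levels and the lightest ventricle of its group. Among mice without heart failure the median lung slope of the collagens was -0.25, and leaving out single mice moved it between -0.31 and 0.45. Without mouse 2 the lung slopes of Postn, Ccn2 and Ltbp2 in that group were 0.68, 0.41 and 0.79, against -0.43, -0.43 and -0.91 with it. Among mice with heart failure the collagen median was -0.08, and -0.1 to -0.06 when single mice were left out.

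Zfp37, a zinc finger gene, had the smallest p of the lung fit (2.36e-05). It ranged from 6.4 to 6.89 (median 6.72) without and from 6.05 to 7.2 (median 7.12) with heart failure, and was lowest in mouse 3 with heart failure, which had the heaviest lungs. The slope was -0.18 ± 0.03 (limma adjusted p = 0.253), -0.14 without and -0.19 with heart failure, and -0.19 to -0.18 when single mice were left out. Peg3, an imprinted zinc finger gene, ranged from 7.07 to 7.98 (median 7.52) without and from 7.24 to 8.55 (median 8.13) with heart failure. It had a slope of -0.2 ± 0.05 (limma adjusted p = 0.9998), and both of its probe sets gave -0.2.

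Omd encodes osteomodulin, a proteoglycan of the matrix. It was 5.06 in mouse 3 with heart failure and 6.54 to 7.95 in the other 6 of that group, and 5.27 to 6.63 without heart failure. Its slope was -0.33 ± 0.08, and -0.18 without mouse 3. From the proteoglycan list, Aspn (asporin) had -0.15 ± 0.04 and Ogn (osteoglycin) -0.13 ± 0.04, and without mouse 3 these were -0.3 and -0.26. Pdgfra, the PDGF receptor of fibroblasts, had -0.1 ± 0.02, with 10.21 in mouse 3 and 10.32 to 10.9 in the others with heart failure, and its 3 probe sets gave -0.13 to -0.09. Gas1 had -0.16 ± 0.04, Gk5 -0.1, Actr5 -0.08 and Calhm5 -0.13. Several arrays of each group shared 1 level of Gk5 (4.63) and 1 of Actr5 (5.38), so these slopes rest largely on the other arrays. Without mouse 3 Gas1 had -0.24 and Actr5 -0.04.

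Further matrix genes at the unadjusted threshold were Col12a1 (-0.24 ± 0.08), Col16a1 (-0.12 ± 0.05), Thbs2 (-0.16 ± 0.05), Fbln1 (-0.16 ± 0.06), Mgp (-0.1 ± 0.04), Loxl3 (-0.12 ± 0.05), Lamc1 (-0.05 ± 0.02) and Nid1 (-0.06 ± 0.02). Ltbp3 and Tgfbr1, of the TGF-beta pathway, had -0.1 ± 0.03 and -0.11 ± 0.03. Mmp2, a gelatinase, had -0.12 ± 0.05, and Mmp11 had 0.06 ± 0.02, which was 0.0062 without mouse 3 with heart failure. Without that mouse Col12a1 had -0.37, Fbln1 -0.29, Mmp2 -0.19, Loxl3 -0.2 and Nid1 -0.1, further from 0 than with it. Loxl3 had -0.07 and Mgp -0.07 without mouse 2 of the group without heart failure. Ccn2 had -0.14 ± 0.06, with r = -0.53 (permutation p = 0.0262) and rho = -0.15 (permutation p = 0.584) over the 14 mice. Without mice 3 and 2 with heart failure r was -0.25, so the relation of Ccn2 rested on them. Ltbp2 gave r = -0.46 (permutation p = 0.0057), rho = -0.43 (permutation p = 0.0792) and r = -0.58 without these mice, and -0.86 within the group with heart failure (exact permutation p = 0.0129, n = 7). Igfbp6, which binds insulin-like growth factors, had -0.18 ± 0.05, and Tbx18, a transcription factor of the epicardium, -0.12 ± 0.04 (-0.19 without mouse 3 with heart failure).

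The first 8 positive lung slopes by p ran from 0.05 to 0.17. Camk2b, a subunit of calcium/calmodulin-dependent kinase II, ranged from 5.46 to 6.14 (median 5.84) without and from 4.75 to 5.99 (median 5.1) with heart failure, and was highest in mouse 3 of the latter. Its slope was 0.17 ± 0.04 (limma adjusted p = 0.9998). Ufsp1 (0.08), Rrnad1 (0.1), Rgl3 (0.13), the leukocyte myosin gene Myo1f (0.05), Taf6l (0.09), Trabd2b (0.09) and Tmem170 (0.13) made up the rest of the first 8. Several arrays of each group shared 1 level of Myo1f (4.76), so its slope rests largely on the other arrays. Rrnad1 had 1 level (4.95) on several arrays without heart failure. Fatty acid oxidation genes were positive in 21 of 27 cases (median 0.01), citric acid cycle genes in 13 of 16 (0.01) and macrophage markers in 16 of 20 (0.03). At the unadjusted threshold these included Eci1 (0.05 ± 0.02) and Lyz2 (0.09 ± 0.04), but also Cpt1a, the carnitine palmitoyltransferase gene (-0.08 ± 0.03). Without mouse 3 with heart failure Eci1 had 0.0059 and Lyz2 0.19, and without mouse 2 with heart failure Lyz2 had 0.06. The macrophage markers went opposite ways in the groups, with 4 of 20 positive (median -0.1) without and 18 of 20 (median 0.05) with heart failure, a difference that was not tested for the list. Scn4b, a sodium channel subunit gene, had 0.15 ± 0.07 and Ttn (titin) 0.05 ± 0.02.

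**Figure D5:**
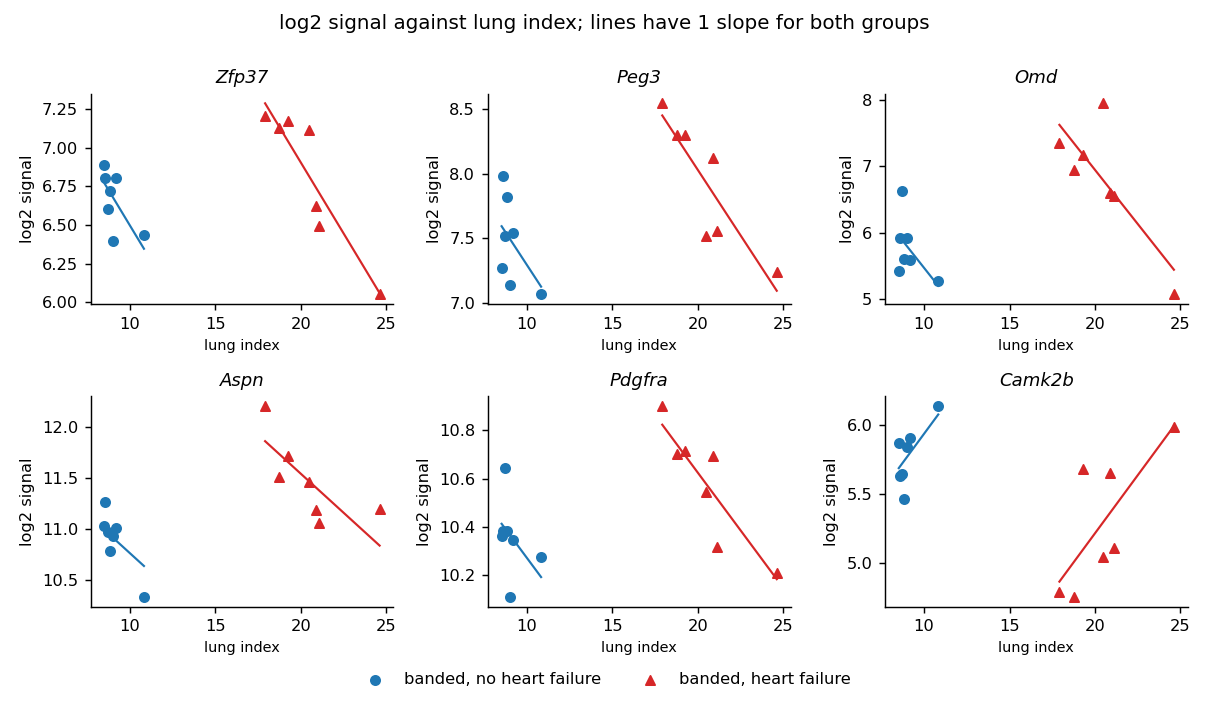
Log2 signal (y axis) against lung index (x axis) for 6 genes in the 14 banded mice, blue circles without and red triangles with heart failure, with lines of 1 common slope through each group mean. Mouse 3 with heart failure, at a lung index of 24.62, holds the lowest level of its group in Zfp37, Peg3, Omd and Pdgfra.

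Genes that separate the banded groups were set against the slopes within them. Without an index in the fit, limma called 1108 of 10733 genes (10.3%) between banded mice with and without heart failure, 440 higher and 668 lower with it. Of the 440, 311 (70.7%) had a positive slope on the left ventricular index within groups, against 46.4% of all genes. The count was 371 among mice without and 170 among mice with heart failure, against 4767 and 5374 of all 10733 genes. On the lung index 94 (21.4%) of the 440 were positive, against 51.1% of all genes. Within the groups 4637 of all 10733 genes were positive on that index without and 5705 with heart failure. At an unadjusted p under 0.05, 53 of the 440 had a negative lung slope (2.06% over all genes) and 1 a positive one (2.24%). Of the 668, 249 (37.3%) were positive on the left ventricular index, 103 among mice without and 420 among mice with heart failure, and 340 on the arrays of low 18S signal only. On the lung index 470 (70.4%) of the 668 were positive. Genes higher with heart failure thus mostly had negative common slopes on the lung index. Leaving out single mice kept 78 to 140 of the 440 positive on that index. Among mice without heart failure alone the count was 110, and it moved between 100 and 317 with the mouse left out, so the direction in that group depended on single mice. The 75 to 195 positive among mice with heart failure alone stayed below the number negative. At the unadjusted threshold the 53 became 19 without mouse 2 and 27 without mouse 3 with heart failure, 35 without mouse 4 with it, and 27 without mouse 2 of the other group. Of the genes lower with heart failure, 319 of 668 were positive on the lung index without mouse 3 with heart failure, so that their direction rested on this mouse. These counts come from the same 14 arrays as the calls.

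With the left ventricular index in the fit 0 genes (0%) differed between the groups, with 830 (7.73%) at an unadjusted p under 0.05. With the lung index it was 0 (0%) and 951 (8.86%). Group and index were nearly collinear, with a correlation across the 14 mice of 0.9 for the left ventricular and 0.97 for the lung index. The median standard error of the group difference went from 0.09 to 0.2 and 0.34. Postn differed by 1.07 ± 0.22 (limma adjusted p = 0.0116) without and by 0.61 ± 0.5 with the left ventricular index. Thbs4 differed by 1.74 ± 0.32 and 1.63 ± 0.75, Timp1 by 1.61 ± 0.3 and 0.41 ± 0.59, and Myh7 by 0.7 ± 0.21 and 0.82 ± 0.48. In these mice heart failure and ventricular weight cannot be told apart by this adjustment.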

How the data were processed

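Left ventricular RNA was measured on Affymetrix arrays. The deposited values are on a log2 scale. Per the submitters' processing notes the authors used GCRMA, whose version and settings are not given in the sources used here. The values ran from 2.19 to 16.77. GCRMA can draw dim probe sets towards a common floor, and very bright ones can saturate, so that slopes there may be understated. Precision is limited by how many arrays there are.

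Of 45101 probe sets, 20497 exceeded a log2 value of 4 on 5 or more of the 19 arrays and were kept. GEO's platform annotation gave 1 symbol to 18595 of them, and the probe set with the highest mean stood for each of 10733 genes. In 19 of 19 mice the index is 1000 times labelled weight divided by tibia (mm). The unit of weight is uncertain, so indices are used as labelled.

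Slopes come from limma 3.58.1 (R 4.3.3, lmFit and eBayes) on the 14 banded arrays, with group and index as terms, Benjamini-Hochberg adjustment over all genes and a threshold of 0.05; an interaction term gave the slopes per group. The fits were tested on simulated data. Relations of 15 fixed genes were tested by 100000 permutations within groups, or exactly over the 5040 orders of 7 mice (Python 3.11.15, scipy 1.17.1, numpy 2.4.6, pandas 2.3.3). Lists (24 of function, 12 of markers, 557 genes tested of 672) are described by counts, with no test. A summed marker level is log2 of the sum of unlogged signals. Figures used matplotlib 3.10.9.

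The text names the 12 genes with the smallest p of each sign for the left ventricular index, the 8 for the lung index and the fixed genes. It also names markers where 5 or fewer of a list had an unadjusted p under 0.05. Of the 2 genes of each function list with the smallest p, most of those with an unadjusted p under 0.05 are printed, and most others are not. The glycolysis and proteasome lists, which held 0 genes at that threshold, are not described. The members, lists and tests were chosen with earlier results of these data known. Alternatives are in the closing section; 3 were added after the data were seen.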

Additional observations from a re-analysis of the deposited data

Results flagged for a closer look

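In 87 groups of 5 or 7 mice (the indices and 27 genes), 6 held a sample that lay far from the others for the group's range, where chance alone does so in about 1 in 20 groups. The lung index of mouse 2 without heart failure was 10.83, with the next at 9.19. S100a4 was 9.88 in mouse 1 with heart failure, the heaviest ventricle, and Acta1 was 15.74 in mouse 7 with heart failure. In sham mice Nppb was 11.74 and Aspn 9.62 in mouse 4, and Thbs4 was 6.66 in mouse 5.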

How the results depend on the processing

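The count of 0 genes past the threshold held for the left ventricular index under all alternatives run except with the animal number series as a block, which gave 1 (Bcl2l11), and for the lung index under all. At an unadjusted p under 0.05 the left ventricular count of 643 became 1091 in mice without heart failure only, 272 in mice with it only, and, in alternatives chosen after seeing the data, 1289 (without heart failure, 18S set as a block) and 424 (with heart failure, not mouse 5). It was 340 to 897 when single mice were left out. The lung count of 461 became 753 with no filter, 951 with ranks, 695 without heart failure only and 1132 with the 18S block there. The cause was not tested. Of 63 genes with left ventricular slopes, 51 kept their sign under every alternative, as did 39 of 43 with lung slopes. The left ventricular genes whose sign turned were all fixed genes, and of the fixed genes only Nppa, Acta1 and Timp1 kept it. The other genes were named for a small p of this same slope, which favours a kept sign. Most lung genes were chosen in that way too, so these counts do not show how stable the slopes are in general.

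Among mice with heart failure only, the sign turned for Col1a1 (-0.071), Postn (-0.26), Ccn2 (-0.0093), Thbs4 (-0.56), Cilp (-0.38) and Ltbp2 (-0.28). Without mouse 5 there it was -0.17 for Col1a1, -0.066 for Col3a1, -0.23 for Postn, -0.57 for Thbs4, -0.49 for Cilp, -0.25 for Ltbp2, -0.15 for Igf1 and -0.036 for Nppb. Myh7 was 0.001001 with the animal number series as a block, 0.016 with the other index in the fit, 0.018 with weights not divided by tibia length, 0.0201 without the 2 farthest animals and 0.085 with ranks. It was 0.199 without heart failure only and 0.38 with the 18S block there. Thbs4 was -0.047 with the animal number series and -0.017 with undivided weights. Nppb was -0.066 with the sham mice added as a group. The mean of probe sets gave Myh6 0.043, Atp2a2 -0.033 and, for lung, Lamc1 0.017, and Atp2a2 was -0.014 without heart failure only. For lung, Eci1 was -0.0092 without the 2 farthest animals, and with the 18S block without heart failure Lyz2 was -0.095 and Tbx18 0.052. Leaving out single mice gave Myh7 -0.15 to 0.0896, Atp2a2 -0.0017 to 0.056, Thbs4 -0.23 to 0.303, Cilp -0.12 to 0.43, Ltbp2 -0.042 to 0.503 and Igf1 -0.056 to 0.25. No paired analysis was possible because the replicate numbers were given in accession order and do not pair mice.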
